A study of Schizosaccharomyces pombe with 50 samples.

Results

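The fission yeast genome holds many transcription units that give no protein. Of the 6613 gene windows in the deposited tables, 671 belong to genes whose identifier begins with SPNCRNA and whose name does not hold the word antisense, and these non-coding RNA (ncRNA) genes are described here. They were chosen by identifier alone, with no measured value. The same tables hold 611 windows of ncRNA genes named antisense and 5059 windows of protein-coding genes, which serve for comparison. ChIP-seq was performed in strain Hu3112 (mat1-M smt-0 pht1-myc), in which the histone variant H2A.Z carries a Myc tag in both cell states. Quiescent cells (Q cells) were taken 24 h after the switch to PMG medium without nitrogen, and vegetative cells (V cells) in mid-log phase in PMG. The 8 antibodies recognised RNA pol II with S5 or with S2 phosphorylation, H3K4me3, H3K9ac, H3K9me2, H3K9me3, the Myc tag and histone H3, with 3 libraries per antibody and state, so that 48 libraries were compared. The study describes them as biological replicates, whereas the labels number them and do not name separate cultures. The p-values thus rest on the spread between these libraries, moderated over all windows.

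Most long ncRNAs are made by RNA pol II, whose C-terminal domain carries S5 phosphorylation near the start of genes and S2 phosphorylation further along them. H3K4me3 is set by the Set1 complex near the 5′ end of transcribed genes and H2A.Z marks nucleosomes beside start sites, whereas H3K9me2 and H3K9me3 mark heterochromatin at centromeres, telomeres, and certain meiotic genes. Fission yeast ncRNAs include housekeeping RNAs of RNase P, RNase MRP, the signal recognition particle and telomerase, small nucleolar RNAs (snoRNAs), and many long RNAs whose roles are unknown.

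By identifier, 639 of the 671 genes were found in the reference annotation (ASM294v3), where 616 are listed as lncRNA, 13 as ncRNA, 9 as snoRNA, and 1 as snRNA. Only 42 carry a name other than their identifier in the tables, of which 31 are prl names. In this annotation, 111 lie clear of protein-coding genes (none within 400 bp), 244 lie beside one without overlap, and 284 (44.4% of 639) overlap one. Of the 284, 194 overlap a coding gene on the opposite strand and 18 on both strands although their name does not say antisense. ChIP reads carry no strand, so that reads of an ncRNA gene and of a gene it overlaps cannot be told apart. Of all 671 windows, whatever their place beside coding genes, 226 overlap the window of a further gene of the same set. For 24 genes over 10% of the 36-mers occur elsewhere in the genome, so their reads could have been placed at another copy. The ORF windows, which reach 200 bp past each end of the gene, were 455 to 5716 bp long with a median of 1284 bp.

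The promoters of 6 ncRNA genes are shown first, because they carry the same short element and all 6 had less RNA pol II S5 in Q cells (values are given further below). Capitals mark the HomolD box, CAGTCACA on either strand, an element known from promoters of fission yeast ribosomal protein genes. Each sequence is 250 bases before to 50 bases after the annotated start, read 5′ to 3′ on the strand of the gene, from RefSeq ASM294v3. The set was chosen after its values were seen.

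SPNCRNA.808 (chrI:2265789-2266088, minus strand): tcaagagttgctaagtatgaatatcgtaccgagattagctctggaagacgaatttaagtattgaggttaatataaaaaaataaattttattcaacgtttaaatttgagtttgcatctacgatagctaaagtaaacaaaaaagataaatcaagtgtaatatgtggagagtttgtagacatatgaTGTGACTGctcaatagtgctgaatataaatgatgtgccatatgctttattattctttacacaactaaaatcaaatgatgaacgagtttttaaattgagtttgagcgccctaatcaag
SPNCRNA.723 (a snoRNA, chrI:1199759-1200058, plus strand): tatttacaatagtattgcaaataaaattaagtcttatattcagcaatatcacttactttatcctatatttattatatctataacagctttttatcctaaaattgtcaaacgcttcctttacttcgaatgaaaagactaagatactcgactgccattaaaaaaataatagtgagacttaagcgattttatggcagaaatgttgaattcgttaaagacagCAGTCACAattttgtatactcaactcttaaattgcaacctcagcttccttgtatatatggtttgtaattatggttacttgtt
SPNCRNA.87 (chrI:3177681-3177980, plus strand): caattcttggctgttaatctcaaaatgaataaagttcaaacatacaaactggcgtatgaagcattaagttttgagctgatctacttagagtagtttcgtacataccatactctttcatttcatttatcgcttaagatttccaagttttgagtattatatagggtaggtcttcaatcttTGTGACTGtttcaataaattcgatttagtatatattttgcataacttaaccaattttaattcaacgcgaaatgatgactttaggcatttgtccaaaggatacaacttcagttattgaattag
snoR61 (SPNCRNA.445, a snoRNA, chrII:3874857-3875156, minus strand): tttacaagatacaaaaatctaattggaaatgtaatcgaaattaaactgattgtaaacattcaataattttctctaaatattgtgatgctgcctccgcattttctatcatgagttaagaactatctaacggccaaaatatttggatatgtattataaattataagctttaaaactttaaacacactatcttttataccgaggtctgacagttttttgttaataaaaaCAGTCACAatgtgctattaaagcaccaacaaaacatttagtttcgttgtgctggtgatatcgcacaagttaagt
SPNCRNA.173 (chrI:1512207-1512506, plus strand): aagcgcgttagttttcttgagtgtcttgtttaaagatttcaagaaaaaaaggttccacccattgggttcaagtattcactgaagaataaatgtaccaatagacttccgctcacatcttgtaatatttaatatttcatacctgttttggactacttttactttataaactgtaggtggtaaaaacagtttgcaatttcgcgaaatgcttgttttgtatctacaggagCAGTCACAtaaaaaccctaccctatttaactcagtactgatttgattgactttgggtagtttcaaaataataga
SPNCRNA.756 (chrI:1712656-1712955, minus strand): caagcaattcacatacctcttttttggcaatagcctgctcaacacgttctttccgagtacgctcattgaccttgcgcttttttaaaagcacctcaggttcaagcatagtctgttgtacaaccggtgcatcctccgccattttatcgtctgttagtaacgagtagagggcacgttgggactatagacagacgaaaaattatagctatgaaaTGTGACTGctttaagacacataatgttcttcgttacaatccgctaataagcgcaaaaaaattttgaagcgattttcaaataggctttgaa

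Counted from 0 at the start, the first base of the box lay between positions -72 and -24 in these promoters. SPNCRNA.173 starts 67 bp from the ribosomal protein gene rps2202 and SPNCRNA.756 starts 80 bp from rlp7, each on the opposite strand, so that the box lies between the starts of both genes.

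Several libraries stood apart, and the results below are to be read with that in view. ORF windows held 856936 to 20673131 reads per library, with a median of 7441339. Q replicate 1 was nearly alike for all antibodies. Across all windows, the 28 pairs of antibodies in Q replicate 1 had Spearman correlations of values per kb of 0.921 to 0.980 (median 0.973), against medians of 0.763 and 0.470 in Q replicates 2 and 3 and of 0.302, 0.267, and 0.264 in V replicates 1 to 3. For H3K9ac, Q replicate 1 had correlations of -0.41 and -0.39 to the remaining Q libraries, whose own correlation was 0.91. For H2A.Z these correlations were 0.02 and 0.08, against 0.94 between Q replicates 2 and 3. V replicate 1 of H3K9me2 and of H3K9me3 correlated at 0.34 to 0.40 with the other V libraries of the same antibody. The Q replicate 2 and 3 libraries of S5, and likewise those of S2, agreed within sampling noise in ORF windows (chi-square per degree of freedom 0.876 and 0.980), so they were counted as 1 library and n is 2 for Q cells. Whether the libraries of Q replicate 1 hold the antibodies on their labels could not be checked from the tables.

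Across the 671 ncRNA genes, the Pol II and H3K4me3 libraries of Q cells also followed the H3 library of the same replicate. For H3K4me3 the Spearman correlation with H3 was 0.96, 0.89, and 0.75 in Q cells, against 0.40, 0.37, and 0.34 in V cells. For S5 it was 0.96, 0.87, and 0.90 in Q cells, against 0.26, 0.25, and 0.22 in V cells. For S2 it was 0.97, 0.95, and 0.95 in Q cells, against 0.49, 0.41, and 0.39 in V cells. The genes therefore differed less from each other, relative to H3, in Q cells than in V cells. This was not particular to Pol II and H3K4me3. For H2A.Z the standard deviation of the log2 ratio to H3 was 0.07, 0.31, and 0.31 in Q cells, against 0.42, 0.68, and 0.68 in V cells. For H3K9me2 it was 0.09, 0.17, and 0.22 in Q cells, against 0.23, 0.47, and 0.55 in V cells. The part of this likeness in the changes given below was not tested, and a value relative to H3 is given beside the main counts. The values are reads divided by a size factor for each library, and whether the spike-in chromatin entered them is not stated, so these values could not show a change common to the whole genome. In bulk chromatin, a change in some of the cells and a smaller change in each cell cannot be told apart.

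**Figure D1:**
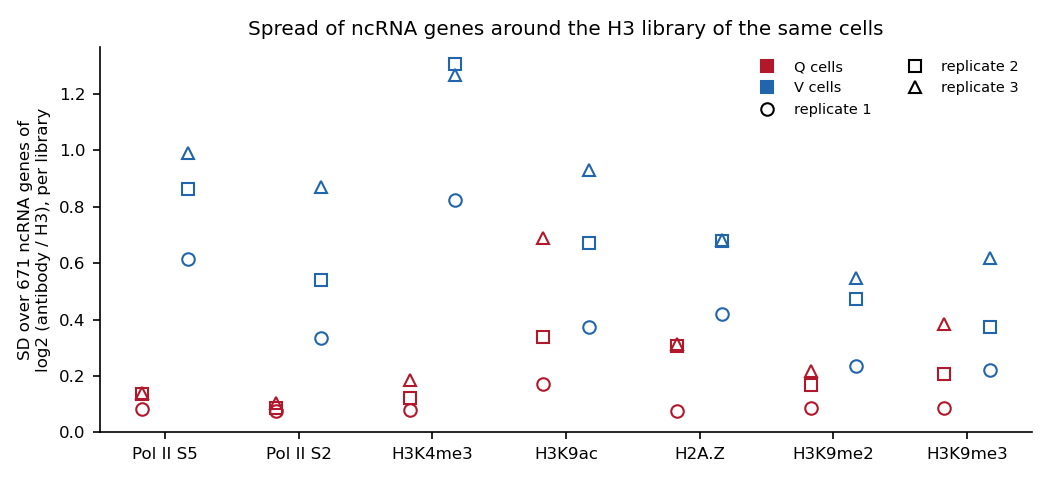
Spread of the 671 ncRNA genes around H3, as the standard deviation of the log2 ratio of each antibody to the H3 library of the same state and replicate (vertical axis), for 7 antibodies (horizontal axis). Each symbol is 1 library, red for Q cells and blue for V cells, and the symbol's shape gives the replicate. For S5, S2, H3K4me3, H2A.Z, and H3K9me2 the 3 Q libraries lie below the 3 V libraries. For H3K9ac and H3K9me3 the Q and V libraries overlap.

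H3K4me3 and RNA pol II S5 were higher over more ncRNA genes than they were lower. A gene was called when the limma adjusted p was under 0.05 and the log2 fold change of Q over V lay beyond 1 in either direction. For H3K4me3, 225 of the 670 ncRNA genes tested were called higher in Q cells, where 19.4% of all windows were, and 32 were called lower, where 13.8% of all windows were. Their median log2 fold change was 0.35, against -0.01 over all windows tested. The antisense-named genes had 106 higher and 35 lower of 611, and the coding genes 795 higher and 829 lower of 5042. For S5, 90 ncRNA genes of 670 were called higher (4.48% of all windows) and 15 lower (1.17% of all windows), with a median log2 fold change of 0.17, against 0.01 over all windows. Relative to H3, the calls for H3K4me3 were 160 higher and 80 lower, beside 17.6% and 17.2% of all windows. For S5 they were 48 higher and 81 lower, beside 2.84% and 7.02% of all windows, so that the balance for S5 turned round. Without replicate 1, 1 Q library was left for S5, so only effect sizes are given. The median S5 log2 fold change of the ncRNA genes tested that have a promoter window was then 0.31, against 0.17 in the main fit.

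S2 gave no call among 671 ncRNA genes with limma or with edgeR (0% of all windows higher and 0% lower), although 174 of them had an unadjusted p under 0.05 with limma and 184 with edgeR. Relative to H3, 2 were called higher and 39 lower for S2, beside 0.562% and 2.08% of all windows. The S2 and S5 changes moved together across 670 genes (Pearson r = 0.88, Spearman rho = 0.87, a description over genes of shared libraries). H3K9ac likewise gave no call (0% of all windows higher and 0% lower), with 127 genes at an unadjusted p under 0.05 with limma and 127 with edgeR, and 8 were called higher and 1 lower without replicate 1, beside 0.258% and 0.0608% of all windows.

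Of the 90 genes called higher for S5, 81 (90.0%) were also called higher for H3K4me3, which is 36.0% of the 225. The changes in H3K4me3 and S5 had a Pearson r of 0.64 and a Spearman rho of 0.61 over 670 genes, as a description. The ratios to H3 of the called genes are given as a description, because the calls rest on the same H3K4me3 values. The 225 genes called higher for H3K4me3 had median log2 ratios to H3 of -0.75, -0.87, and -0.87 in Q cells, against -1.86, -2.67, and -2.29 in V cells. The 32 called lower had ratios of -0.76, -0.65, and -0.51 in Q cells, against 0.25, 0.61, and 0.74 in V cells. In Q cells the median of all 671 genes was -0.75, -0.81, and -0.77.

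**Figure D2:**
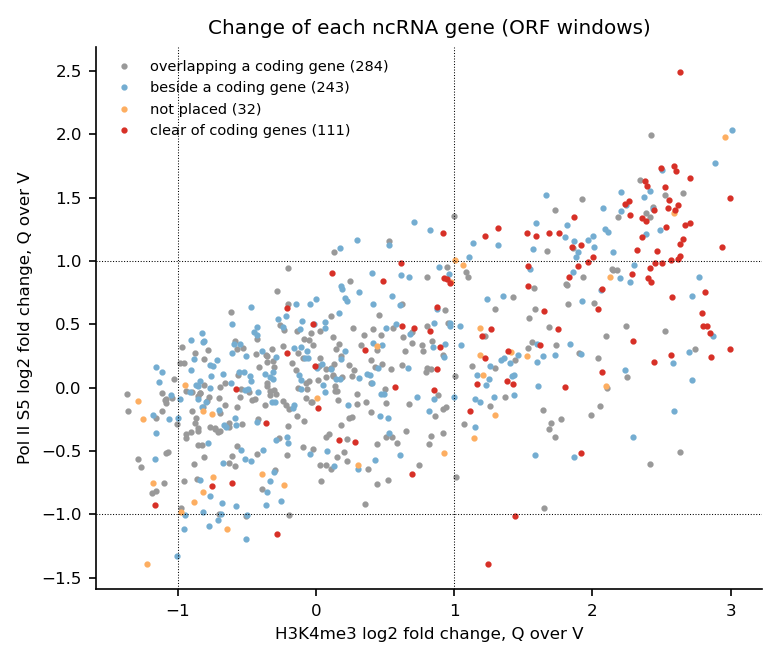
Log2 fold change of Q over V for H3K4me3 (horizontal axis) and RNA pol II S5 (vertical axis) of each of the 670 ncRNA genes tested for both. Colours give the position of the gene and dotted lines mark a log2 fold change of 1 and -1. Genes clear of coding genes (red) lie mostly to the upper right, with a median of 1.89 for H3K4me3 and 0.84 for S5.

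The changes differed with the position of the ncRNA gene relative to coding genes, which is given as counts, with no test between the classes. Of the 111 genes clear of coding genes, 81 (73.0%) were called higher for H3K4me3 and 1 lower, with a median log2 fold change of 1.89. Of the 243 tested genes beside a coding gene, 73 (30.0%) were higher and 9 lower, with a median of 0.18. Of the 284 that overlap a coding gene, 58 (20.4%) were higher and 18 lower, with a median of 0.10. For S5 the counts higher and lower were 39 and 3 of 111 clear of coding genes, 33 and 8 of 243 beside one, and 15 and 2 of 284 overlapping one, with medians of 0.84, 0.19, and -0.00. Relative to H3, the counts for H3K4me3 were 62 higher and 3 lower among the clear genes, 44 and 36 beside a coding gene, and 46 and 29 overlapping one. For S5 they were 21 higher and 9 lower, 14 and 31, and 9 and 30, with medians of 0.23, -0.06, and -0.12, so that more genes were higher than lower only in the clear class. When the same 3 classes were drawn from the deposited windows, where 118 genes lay clear, 78 of 117 were called higher for H3K4me3 and 36 of 117 for S5.

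The levels show where this difference lay. The median H3K4me3 value of the clear genes was 312, 317, and 327 normalised reads per kb in Q cells, against 148, 62.1, and 66.8 in V cells. The overlapping genes had 349.8, 365, and 369 in Q cells, against 350.0, 347, and 366 in V cells. The 3 classes were thus close to each other in Q cells, whereas in V cells the clear genes were far below the others. For S5 the clear genes had 448, 474, and 479 in Q cells, against 342, 211, and 211 in V cells. Their H3 value was also higher in Q cells, at 561, 592, and 591, against 503, 380, and 318 in V cells. V replicate 1 was the highest of the V libraries for all of these 3 measures in the clear genes.

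**Figure D3:**
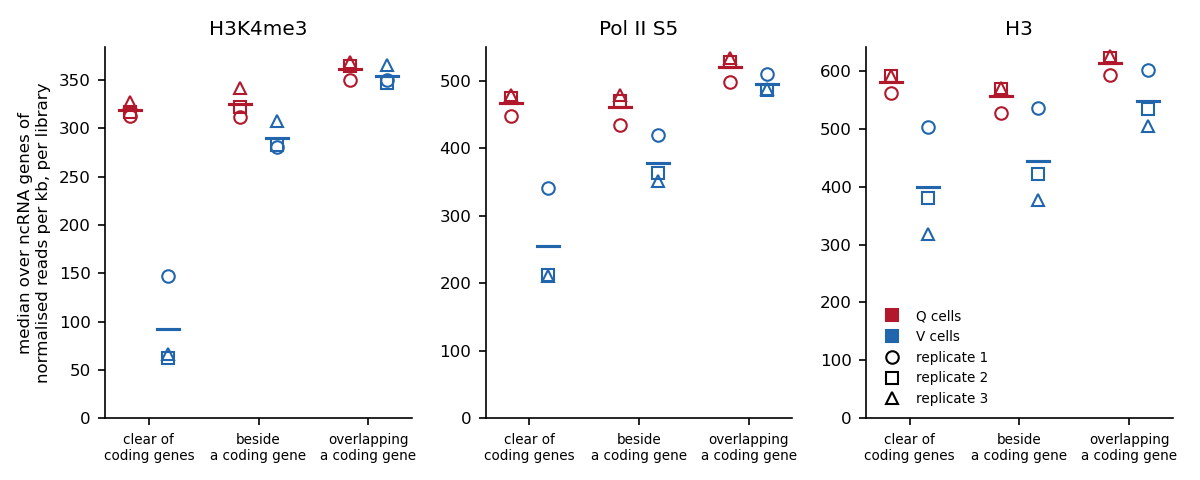
Median value per library, in normalised reads per kb, of ncRNA genes by position (horizontal axis) for H3K4me3, RNA pol II S5 and H3. Each symbol is 1 library, red for Q cells and blue for V cells, and lines are the mean of the 3 libraries. The V libraries of genes clear of coding genes lie between 62.1 and 148 for H3K4me3, while their Q libraries lie between 312 and 327.

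The share of called genes also varied with what else lay near. Of 175 genes whose 5′ end diverges from a coding gene within 500 bp, 41 (23.4%) were called higher for H3K4me3 and 8 lower, against 171 (36.9%) and 20 of the 463 tested genes that do not. Over all windows 19.4% were higher and 13.8% lower. The diverging class leaves out genes that overlap a coding gene, so it cannot be told apart from the position classes above. For H2A.Z, which marks start sites, the diverging genes had a median log2 fold change of -0.41 with 1 higher and 12 lower, against -0.09 with 7 higher and 12 lower. Over all windows 1.17% were higher and 1.47% lower for H2A.Z. Without replicate 1 only 5 of all 671 ncRNA genes were called lower for H2A.Z. Of the 126 longest windows, 52 (41.3%) were called higher for H3K4me3 and 1 lower, beside 33.6% and 4.78% of all tested ncRNA genes.

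By kind, the 31 prl genes had 12 higher and 2 lower for H3K4me3, with a median of 0.82, and 2 higher for S5. Of all tested ncRNA genes, 33.6% were higher and 4.78% lower for H3K4me3, and 13.4% and 2.24% for S5. Over all windows the shares were 19.4% and 13.8% for H3K4me3, and 4.48% and 1.17% for S5. The prl count for H3K4me3 thus lay near the share of all ncRNA genes. Their median H3K4me3 level was 343 normalised reads per kb in Q cells, against 205 in V cells. The 23 genes annotated as snoRNA, snRNA or ncRNA had 6 higher and 2 lower for H3K4me3 and 3 higher and 3 lower for S5, with medians of -0.14 and -0.12. In this group the S5 calls were thus even in both directions, and the median H3K4me3 level was 382 per kb in Q cells, against 401 in V cells.

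Near the ends of chromosomes I and II (within 100 kb), 17 of 18 ncRNA genes could be tested, and 14 were called higher for H3K4me3 and 12 for S5, with medians of 2.42 and 1.30. For H3K4me3, 33.6% of all tested ncRNA genes and 19.4% of all windows were higher, and for S5 13.4% and 4.48%. Coding genes near the same ends were not counted, so these counts do not set ncRNA genes apart from their neighbours. Windows of overlapping genes share reads, so calls in a shared direction are in part built in. Of 55 overlapping genes called higher for H3K4me3 whose coding partner has a window, 25 (45.5%) had a partner called higher as well, and for S5 this held for 8 of 14. For H3K4me3, 26 of 71 (36.6%) genes beside a coding gene without overlap also had such a neighbour within 400 bp called higher, and for S5 5 of 31 (16.1%). Windows of neighbours this close can share reads too. Of all coding genes tested, 15.8% were called higher for H3K4me3 and 2.24% for S5.

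Among genes with a large increase in H3K4me3 was SPNCRNA.917 (ORF window chrI:3575909-3576790 in the deposited coordinates, whose build is ASM294v2, and clear of coding genes), a lncRNA of unknown role. Its H3K4me3 values were 298, 282, and 239 normalised reads in Q cells, against 58.1, 16.2, and 38.4 in V cells. Every Q library lay above every V library, and the log2 fold change was 2.997 ± 0.39 (SE, adjusted p = 0.00156). Its S5 values were 394, 432, and 384 normalised reads in Q cells, against 215, 106, and 101 in V cells, again without overlap, with a log2 fold change of 1.50 ± 0.27 (SE, adjusted p = 0.0135). H3 rose as well at this gene, with a log2 fold change of 1.05 ± 0.18 (SE, adjusted p = 0.0281), and relative to H3 the S5 change of 0.45 was not called (adjusted p = 0.345). The H3 call was lost without replicate 3 (0.85).

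SPNCRNA.784 (chrI:1956301-1957188), another lncRNA clear of coding genes, had H3K4me3 values of 231, 244, and 267 normalised reads in Q cells, against 82.5, 11.7, and 27.3 in V cells, with a log2 fold change of 2.99 ± 0.56 (SE, adjusted p = 0.00509). Its S5 values of 357, 339, and 336 normalised reads in Q cells, against 318, 276, and 232 in V cells did not overlap, but the difference was not called (log2 fold change 0.31 ± 0.13, SE, adjusted p = 0.114). Relative to H3 its H3K4me3 change was 1.67 and was not called (adjusted p = 0.0829). The largest H3K4me3 increase of a called gene was at SPNCRNA.448 and the largest S5 increase at SPNCRNA.1095, but 98.0% and 96.0% of their 36-mers occur elsewhere and their counts were low, so both are uncertain.

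The most abundant S5 signal per kb in Q cells was at prl53, a polyadenylated RNA without a long reading frame whose gene overlaps a coding gene on the same strand. It had H3K4me3 values of 1950.4, 1935, and 1677 normalised reads in Q cells, against 623, 551, and 505 in V cells. Its H3 values were 2978, 3616, and 3442 normalised reads in Q cells, against 1226, 1099, and 794 in V cells, and both measures rose, by log2 fold changes of 1.73 ± 0.06 (SE, adjusted p = 0.000495) and 1.70 ± 0.15 (SE, adjusted p = 0.00409). Relative to H3 its H3K4me3 change was 0.02. Its S5 values, 2850.4, 3435, and 3624 normalised reads in Q cells, against 5857, 3172, and 3408 in V cells, overlapped and gave no call.

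SPNCRNA.134, second in S5 per kb in Q cells, showed the marks moving apart. Its H3K4me3 values were 708, 667, and 561 normalised reads in Q cells, against 144, 88.2, and 86.1 in V cells, with a log2 fold change of 2.63 ± 0.17 (SE, adjusted p = 0.000495). Its S5 values were 1033, 1205, and 1216 normalised reads in Q cells, against 1861, 1364, and 1521 in V cells, with a log2 fold change of -0.51 ± 0.15 (SE, adjusted p = 0.0463). Every Q library thus lay above every V library for H3K4me3 and below every V library for S5, the change in S5 being short of the threshold. H2A.Z and H3 had log2 fold changes of 0.99 ± 0.07 (SE, adjusted p = 0.0004) and 0.88 ± 0.07 (SE, adjusted p = 0.00371), also short of it. At omt3, a named lncRNA of the set, H3K4me3 was 754, 758, and 686 normalised reads in Q cells, against 281, 254, and 196 in V cells (1.60 ± 0.11, SE, adjusted p = 0.000502), without overlap.

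The named RNAs with known functions differed among each other. At rrk1, the RNA of RNase P, which trims tRNA precursors, H3K4me3 values were 676, 863, and 971 normalised reads in Q cells, against 2157, 1799.9, and 1736 in V cells, the highest V level per kb of all 671 genes, and the log2 fold change was -1.19 ± 0.17 (SE, adjusted p = 0.00189). At mrp1, the RNA of RNase MRP, which cuts ribosomal RNA precursors, they were 412, 485, and 509 normalised reads in Q cells, against 1115, 1028, and 1004 in V cells, with a log2 fold change of -1.17 ± 0.11 (SE, adjusted p = 0.000712). Both genes thus had less H3K4me3 in Q cells, without overlap of the groups, and without replicate 1 the change at rrk1 was -0.95 and no longer past the threshold.

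At srp7, the RNA of the signal recognition particle, which directs proteins to the endoplasmic reticulum, H3K4me3 went the other way, with 299, 303, and 286 normalised reads in Q cells, against 82.5, 27.0, and 34.1 in V cells and a log2 fold change of 2.77 ± 0.36 (SE, adjusted p = 0.00149). At ter1, the telomerase RNA, the values overlapped, with 662, 632, and 599.6 normalised reads in Q cells, against 568, 749, and 750.0 in V cells. Its S5 (0.46 ± 0.08, SE, adjusted p = 0.0123) and H2A.Z (-0.62 ± 0.05, SE, adjusted p = 0.000459) differed by less than the threshold. S5 at snoR61, a snoRNA gene, was 459, 626, and 586 normalised reads in Q cells, against 1458, 961, and 1022 in V cells, a log2 fold change of -1.12 ± 0.22 (SE, adjusted p = 0.0169). H3K4me3 at snR191, another snoRNA gene, had a log2 fold change of 1.01 ± 0.17 (SE, adjusted p = 0.00363). Both changes fell short of the threshold without replicate 1, at -0.71 and 0.85, with 1 Q library left for S5.

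Genes named for meiosis were also measured. At meu3, a gene found for its induction in meiosis, H3K4me3 values were 234, 189.7, and 156 normalised reads in Q cells, against 55.0, 23.4, and 34.1 in V cells and S5 values 326, 269, and 249 normalised reads in Q cells, against 138, 65.4, and 75.5 in V cells. Both were called, with log2 fold changes of 2.40 ± 0.29 (SE, adjusted p = 0.00121) and 1.59 ± 0.21 (SE, adjusted p = 0.00733), and H3 was not (0.09 ± 0.12, SE, adjusted p = 0.638). Of the 36-mers of meu3, 55.0% occur elsewhere. At meu16 and meu19 the H3K4me3 log2 fold changes were 1.09 ± 0.07 (SE, adjusted p = 0.000498) and 1.89 ± 0.20 (SE, adjusted p = 0.000937), both called. Of the 36-mers of meu19, 54.5% occur elsewhere, and its promoter window matches that of meu3 in 296 of 300 bases, so these genes are not separate observations. At sme2, whose RNA (meiRNA) binds the meiosis regulator Mei2, H3K4me3 values were 480.0, 512, and 547 normalised reads in Q cells, against 819, 968, and 935 in V cells (log2 fold change -0.82 ± 0.07, SE, adjusted p = 0.000657), which did not overlap but stayed short of the threshold. At SPNCRNA.1343 (nc-tgp1), whose transcription represses the phosphate-responsive gene tgp1, the H3K4me3 log2 fold change was -0.36 ± 0.07 (SE, adjusted p = 0.0045) and not called.

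A list of 33 ncRNA genes induced as RNA in quiescence was read in the same fits. The list comes from RNA measurements of the same cell states that the same group published earlier, and so it is not independent evidence of direction. In the ORF windows 12 (36.4%) were called higher and 0 lower for H3K4me3, beside 33.6% of all ncRNA genes higher, and 6 (18.2%) higher and 0 lower for S5, beside 13.4%. The medians were 0.50 and 0.29, beside 0.35 and 0.17 for all ncRNA genes, so the shares of the list lay near those of all ncRNA genes. The 6 were SPNCRNA.821, SPNCRNA.877, SPNCRNA.1415, SPNCRNA.1530, SPNCRNA.1670, and prl51. SPNCRNA.1530 is named aal1 in the annotation. Its S5 values were 533, 499, and 489 normalised reads in Q cells, against 306, 152, and 117 in V cells, with a log2 fold change of 1.42 ± 0.28 (SE, adjusted p = 0.0173), and its H3 changed by 0.10 ± 0.09 (SE, adjusted p = 0.485). At prl51 S5 was 375, 357, and 345 normalised reads in Q cells, against 225, 119, and 113 in V cells, with a log2 fold change of 1.22 ± 0.22 (SE, adjusted p = 0.0138). In both genes all Q libraries lay above all V libraries, of which V replicate 1 was the highest. Without replicate 3 the S5 changes of SPNCRNA.877 (0.98) and SPNCRNA.1415 (0.97) fell short of the threshold. The 12 called for H3K4me3 had log2 fold changes between 1.43 at SPNCRNA.1443 and 2.39 at SPNCRNA.877. Of the 2 core quiescence genes of the list, SPNCRNA.821 was called for S5 (1.31 ± 0.28, SE, adjusted p = 0.0208), while SPNCRNA.1364 had an S5 log2 fold change of -0.01 ± 0.12 (SE, adjusted p = 0.943) and was not.

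**Figure D4:**
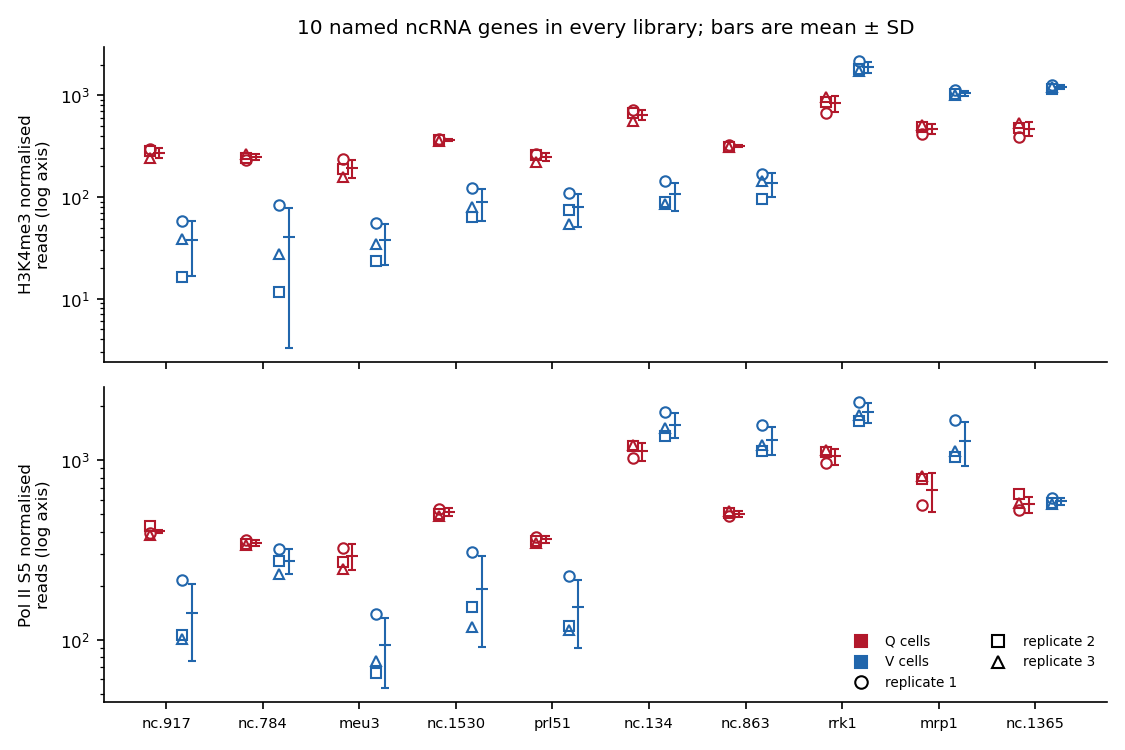
Normalised reads (log axis) for H3K4me3 (top) and RNA pol II S5 (bottom) of 10 named ncRNA genes (horizontal axis, SPNCRNA written as nc). Symbols are single libraries, red for Q cells and blue for V cells, and bars are the mean ± SD beside them, with Q replicates 2 and 3 counted as 1 library for S5. rrk1, mrp1 and SPNCRNA.1365 lie lower in Q cells for H3K4me3, the others higher.

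The 3 largest decreases in H3K4me3 were at genes overlapping coding genes or not placed in the annotation. SPNCRNA.1365 is annotated as cti6-antisense-1 although the tables do not call it antisense. Its values were 389, 481, and 537 normalised reads in Q cells, against 1262, 1142, and 1211 in V cells, a log2 fold change of -1.37 ± 0.12 (SE, adjusted p = 0.000653), while S5 changed by -0.05 ± 0.10 (SE, adjusted p = 0.687). SPNCRNA.1497 had a log2 fold change of -1.36 ± 0.10 (SE, adjusted p = 0.000502) and SPNCRNA.681 of -1.29 ± 0.09 (SE, adjusted p = 0.000502). In each of these 3 genes all Q libraries lay below all V libraries.

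Of the 15 genes called lower for S5, the largest decrease was at SPNCRNA.863 (chrI:2938938-2940965), with 487, 507, and 524 normalised reads in Q cells, against 1566, 1127, and 1211 in V cells and a log2 fold change of -1.40 ± 0.13 (SE, adjusted p = 0.00634). Its H3K4me3 was higher in Q cells (1.24 ± 0.20, SE, adjusted p = 0.00281). Its H3 was 556, 572, and 568 normalised reads in Q cells, against 388, 285, and 161 in V cells, with a log2 fold change of 1.11 ± 0.25 (SE, adjusted p = 0.0439), a call lost without replicate 3 (0.76). Relative to H3 the H3K4me3 change was 0.13 and not called, and 56.2% of its 36-mers occur elsewhere. SPNCRNA.808 and SPNCRNA.507, next in order, share most of their window, so they are not separate observations. SPNCRNA.808 had S5 values of 305, 445, and 435 normalised reads in Q cells, against 989.6, 879, and 947 in V cells (log2 fold change -1.33 ± 0.16, SE, adjusted p = 0.00673). In these 15 genes the median S5 level was 519.6, 660.3, and 636 per kb in Q cells, against 1436, 1181, and 1229 in V cells, where V replicate 1 was highest. Without replicate 1 the S5 fit holds 1 Q library, and its counts are not given.

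Of the 13 genes called lower for S5 that have a promoter window, 6 (46.2%) held a HomolD box, the promoters shown above. The box was found in 15 of 639 ncRNA promoters (2.35%), in 137 of 5112 coding promoters (2.68%), and in 208 of 12605 promoters of all annotated genes (1.65%). Of the 15 ncRNA genes with a box, 14 had an S5 log2 fold change below 0 and 6 were called lower, with a median of -0.78, against 0.19 in the 624 without it. The exception was SPNCRNA.658, which was called higher (1.16, adjusted p = 0.0329). Coding genes with a box had a median of -0.77, with 10 of 137 called lower. Without replicate 1, with 1 Q library left, the median of the 15 ncRNA genes was -0.46 and 14 of 15 still lay below 0. Of the coding genes 128 lay below 0, with a median of -0.45. Relative to H3, 10 of the 15 were called lower, beside 70 of the 638 ncRNA genes tested that have a promoter window and 103 of the 137 coding genes with a box. A match gives letters and not a bound factor.

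SPNCRNA.173, whose start faces that of rps2202, had S5 values of 296, 359, and 324 normalised reads in Q cells, against 668, 647, and 670.4 in V cells (log2 fold change -1.04 ± 0.09, SE, adjusted p = 0.00634), and rps2202 itself changed by -1.06. SPNCRNA.756 had S5 values of 466, 601, and 616 normalised reads in Q cells, against 1137, 1014, and 1092 in V cells (log2 fold change -1.001 ± 0.13, SE, adjusted p = 0.00716), and its neighbour rlp7 changed by -1.09. Neighbours with starts this close share reads in their windows. Of 3 other motifs searched on both strands, which may overlap each other, GATAAG was in 10.5% of ncRNA promoters and 12.0% of all promoters, TTCTTTGTT in 2.97% and 1.89%, and TGACGT in 7.82% and 5.49%.

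**Figure D5:**
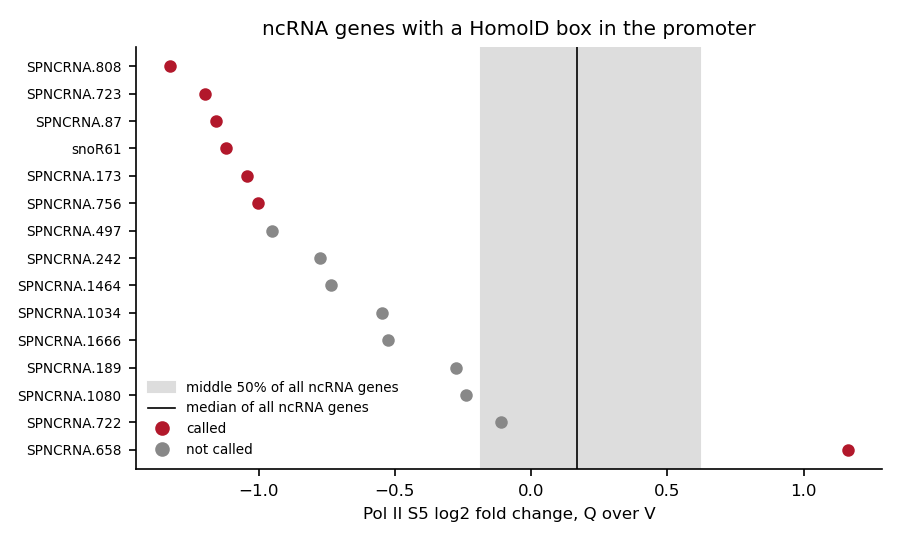
RNA pol II S5 log2 fold change of Q over V (horizontal axis) of the 15 ncRNA genes with a HomolD box in the promoter (rows). Red points were called and grey points were not, the grey band is the middle 50% of all ncRNA genes and the line their median of 0.17. All genes but SPNCRNA.658 lie below 0.

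H2A.Z changed at few ncRNA genes. Of 671 tested, 10 were called higher (1.17% of all windows) and 24 lower (1.47% of all windows), with a median of -0.15 against -0.01. The largest decreases were at SPNCRNA.1220, SPNCRNA.194 and SPNCRNA.413. SPNCRNA.194 had 555, 807, and 723 normalised reads in Q cells, against 1388, 1564, and 1609.9 in V cells, a log2 fold change of -1.14 ± 0.08 (SE, adjusted p = 0.000454), and SPNCRNA.413, the gene with the highest V level per kb, had 379, 806, and 846 normalised reads in Q cells, against 1209, 1502, and 1516 in V cells (-1.14 ± 0.18, SE, adjusted p = 0.00328). Q replicate 1 was the lowest Q library in both. Without replicate 1 the calls were 23 higher and 5 lower, beside 2.17% and 0.395% of all windows, and at SPNCRNA.413 the change was -0.87, so the balance between higher and lower rests on that replicate. Relative to H3 they were 2 higher and 72 lower, beside 0.517% and 3.25% of all windows.

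The largest H2A.Z increase was at SPNCRNA.313, a gene clear of coding genes, with 574, 542, and 657 normalised reads in Q cells, against 378, 176, and 209.8 in V cells and a log2 fold change of 1.29 ± 0.23 (SE, adjusted p = 0.0052). Relative to H3 that change was 0.09. SPNCRNA.310 and prl61, 2 neighbours near an end of chromosome I, followed, with log2 fold changes of 1.20 ± 0.14 (SE, adjusted p = 0.00135) and 1.14 ± 0.10 (SE, adjusted p = 0.000693). Of the 10 genes called higher for H2A.Z, 7 were also called higher for H3, which is 26.9% of the 26 genes called for H3.

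H3 itself was called at 26 of 671 ncRNA genes, each time higher (1.38% of all windows were higher and 0% lower), with a median log2 fold change of 0.27, against -0.00 over all windows. The largest called increase was at SPNCRNA.1035, with H3 values of 331, 360.0, and 399 normalised reads in Q cells, against 203, 97.0, and 49.2 in V cells. V replicate 3 was the lowest V library there. Without replicate 3 only 4 genes were called (0.471% of all windows) and without replicate 1 the number was 93 (3.8% of all windows). Of the 26 genes, 22 (84.6%) were also called higher for H3K4me3, which is 9.78% of the 225.

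The heterochromatin marks changed at few genes. For H3K9me2, 6 of 670 ncRNA genes were called, all of them lower (0.913% of all windows were lower and 0.0152% higher), namely SPNCRNA.310, prl61, SPNCRNA.394, SPNCRNA.1506, SPNCRNA.1172, and SPNCRNA.359. SPNCRNA.310, which had the highest ratio of H3K9me2 to H3 of all 671 genes in both states, had 203, 619, and 744 normalised reads in Q cells, against 497, 3676, and 2659 in V cells, a log2 fold change of -1.90 ± 0.17 (SE, adjusted p = 3.76e-08). At prl61 the values were 359, 1116, and 1362 normalised reads in Q cells, against 867, 6301, and 4529 in V cells (-1.83 ± 0.23, SE, adjusted p = 2.8e-06). In both genes the groups overlapped, because V replicate 1 was below Q replicates 2 and 3, while each Q library lay below the V library of the same number. Without the replicate block none of the 6 was called, and relative to H3 none was.

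At the same 2 genes the other measures rose. S5 at prl61 was 922, 673, and 675 normalised reads in Q cells, against 246, 159, and 162 in V cells (log2 fold change 1.99 ± 0.10, SE, adjusted p = 0.00634) and H3K4me3 had a log2 fold change of 2.42 ± 0.32 (SE, adjusted p = 0.00157). At SPNCRNA.310 the log2 fold changes were 1.98 ± 0.18 (SE, adjusted p = 0.00634) for S5 and 2.96 ± 0.33 (SE, adjusted p = 0.00101) for H3K4me3, with H3 at 0.12 ± 0.13 (SE, adjusted p = 0.559). For H3K9me3, SPNCRNA.394 and SPNCRNA.1506 were called lower (0.639% of all windows) and SPNCRNA.1095 higher (0.0304% of all windows) of 670. SPNCRNA.1506 had 153, 169, and 193 normalised reads in Q cells, against 311, 838, and 2277 in V cells, a log2 fold change of -2.29 ± 0.30 (SE, adjusted p = 0.000324), with V replicate 1 again the lowest V library. The higher call at SPNCRNA.1095 rests on values of 8.22 to 29.2 normalised reads in a repeated gene. Without the replicate block none of these 3 calls for H3K9me3 was made (adjusted p = 0.186 at SPNCRNA.1506 and 0.22 at SPNCRNA.1095), and the deviations of same-numbered Q and V libraries had correlations of 0.63, 0.09, and 0.56 for this mark. The call at SPNCRNA.1095 was also lost relative to H3, with equal library totals, and without replicate 2 or 3.

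In the windows of 400 bp at the lower-coordinate end of each gene, which is the start of plus-strand genes only, H3K4me3 and S5 were again called higher more often than lower. For H3K4me3, 309 of 666 ncRNA genes were called higher (36.4% of all windows) and 76 lower (21.7% of all windows), with a median log2 fold change of 0.75, against 0.00. For S5, 116 were higher (6.68% of all windows) and 21 lower (1.74% of all windows), and relative to H3 the calls were 74 and 81, beside 4.67% and 7.53% of all windows. For H2A.Z, unlike in the ORF windows, more were higher (57, 8.37% of all windows) than lower (14, 1.28% of all windows), and relative to H3 20 and 15, beside 8.31% and 2% of all windows. Of the 309 genes called higher for H3K4me3 here, 195 (63.1%) were called higher in the ORF windows, which is 86.7% of the 225. Of the 33 genes of the RNA-induced list, 17 were higher and 3 lower for H3K4me3 in these windows, with a median of 1.17. For S5, 8 were higher and 0 lower. Of all ncRNA genes tested here, 46.4% were higher and 11.4% lower for H3K4me3, and 17.4% and 3.15% for S5. The shares of the list thus lay near those of all ncRNA genes here too.

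As a check of the labels, 8 coding genes known to respond to nitrogen starvation and 5 growth genes were read in the same fits. Of the 8, 6 were called higher for H3K4me3 and 0 for S5 (medians 1.71 and 0.04). Of the 5 growth genes 3 were called lower for S5, with a median of -1.03, and 1 for H3K4me3, with a median of -0.55. Each list was thus called mainly in 1 of the 2 measures.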

How the data were processed

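The genes and gene lists were chosen with earlier results of these data known. Of 50 samples, 48 ChIP libraries were used and the 2 inputs were not. Reads were single-end and 36 bp long. The authors used BWA 0.7.17 and the ASM294v2 build, SAMtools 1.17, deepTools 3.3.2 for window counting, and DESeq2 for batch removal (version not given in the sources used here). Each deposited signal value is a read number over the size factor of its library, and whole reads were recovered in 100% of values. The authors' fold change and p-value columns were not used, and 0 per-sample columns lacked a labelled sample. The windows of 400 bp at the lower-coordinate end of each gene are named start windows below, although they are the start of plus-strand genes only. The S2 table of start windows was not used.

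Changes of Q over V were fitted on log2(value + 1), a scale that understates changes of low windows, with limma 3.58.1 (R 4.3.3, trended variance, replicate number as a block because the authors removed batch effects). Windows entered the fit if 3 or more libraries reached a value of 10, p was adjusted over all of them (Benjamini-Hochberg), and calls needed an adjusted p below 0.05 together with a log2 change beyond 1 in size. ± is the SE from the moderated variance of limma, which draws the spread of each window toward the trend over all windows. Alternatives were no block, edgeR 4.0.16 on recovered reads, a pseudocount of 5, no filter, equal library totals, a change relative to H3 in one fit with the H3 libraries, each replicate left out (at least 2 libraries over the minimum), and Q replicates 2 and 3 of S5 and S2 as separate libraries. Leaving out replicate 1 of S5 or S2 left 1 Q library against 2 V libraries, so only effect sizes are given there. The exception is the upper end of the S2 range of counts further below, from which no conclusion is drawn. The script was tested on simulated data. Start windows held 170278 to 5319910 reads per library.

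Positions were taken from ASM294v3, because deposited windows of spliced genes are shortened, and 629 of 639 matched genes have the same ends there. Genes were named if they had the 3 largest called changes each way for H3K4me3, S5, S2 or H2A.Z (1 for other antibodies) that moved the same way in every replicate pair, had a name other than a prl number or were sme2, ter1 or SPNCRNA.1343, were called for S5, S2 or H3K4me3 or were core genes on the RNA-induced list, or had 1 of the 2 highest values per kb (S5, H3K4me3, H2A.Z) or ratios of H3K9me2 to H3. Other genes named were chosen after their values were seen. Not all genes that met the rule are described.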

Additional observations from a re-analysis of the deposited data

How the results depend on the processing

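The alternatives were read for 125 values of named genes, all of them called in the main fit, so values that were not called are not covered. Because these values were chosen as past the threshold, it says little that 0 reversed under any alternative. The number that fell short of the threshold was 5 without the replicate block, 5 with edgeR, 4 with a pseudocount of 5, and 0 without the filter. It was 6 with equal library totals, 28 of 121 relative to H3, and 10 and 14 with replicates 2 and 3 left out. Counts of ncRNA genes called for H3K4me3 (257) and for H3K4me3 in start windows (385) stayed within 1.5 times in total under every alternative. Their leave-one-out ranges were 248 to 272 and 352 to 379. For S5 (105, and 137 in start windows) the same held for the alternatives with more than 1 Q library. Without replicate 1, 1 Q library was left for S5 and S2, so no counts are given there for S5. The upper end of the S2 range below comes from that fit. It has no spread between Q libraries behind it, and no conclusion is drawn from it. The split by direction did not stay within that range. For S5, 90 higher and 15 lower became 88 and 20 without replicate 2, 76 and 18 without replicate 3, and 48 and 81 relative to H3. In start windows 116 and 21 became 104 and 22, 98 and 16, and 74 and 81. For H3K4me3, 225 and 32 became 160 and 80 relative to H3 and 217 and 47 with equal library totals, where the median of all windows shifted to -0.10. In start windows 309 and 76 became 290 and 116 relative to H3 and 330 and 37 with equal totals. For S2, 0 calls became 4 without the replicate block, 3 with equal totals, 41 relative to H3, 27 with Q replicates 2 and 3 apart, and 6 to 68 with a replicate left out. For H2A.Z, 34 became 74 relative to H3, with 28 to 49 when a replicate was left out, and in start windows 71 became 35 relative to H3. For H3K9ac, 0 became 0 to 9 with a replicate left out. For H3K9me2, 6 became 0 without the replicate block, 0 relative to H3, and 5 to 19 with a replicate left out. For H3K9me3, 3 became 0 without the replicate block, 12 relative to H3, and 1 to 5 with a replicate left out. For H3, 26 became 43 without the replicate block and 4 to 93 with a replicate left out. The cause of these differences was not tested. For H2A.Z every pair of same-numbered Q and V libraries deviated together (correlations 0.52, 0.46, and 0.35). For H3K9ac (0.72, 0.06, and 0.54) and H3K9me3 (0.63, 0.09, and 0.56) replicates 1 and 3 did so, but replicate 2 hardly did. For H3K4me3 the correlations were weaker (0.20, 0.09, and 0.25). At least 1 pair lay below 0 for S5 (-0.36, -0.10, and -0.37), S2 (-0.13, 0.06, and -0.16), H3 (-0.53, 0.05, and -0.54), and H3K9me2 (-0.03, 0.26, and -0.05). For these 4 antibodies the pairing rests on the number alone. Read depth speaks to counting error only. Each SE rests on the spread between libraries after it was drawn toward the trend over all windows. It can therefore be smaller than the spread of the gene's own libraries. The low counts at SPNCRNA.448 and SPNCRNA.1095 limit what their values show.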
